A study of Homo sapiens with 6 samples.

Results

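S100 proteins are small proteins that bind calcium through a pair of EF-hands and act mostly as dimers that change the behaviour of other proteins. Most of their human genes lie side by side in a cluster on the long arm of chromosome 1, at 1q21. Gene expression was compared for 10 genes in LP-1/Cfz and in parental LP-1 human multiple myeloma cells. S100A4, S100A6, S100A8, S100A9, S100A10, S100A11 and S100A13 belong to the cluster, S100P is on chromosome 4, S100B on chromosome 21, and S100PBP, which is not an S100 protein but binds S100P, is on chromosome 1 outside the cluster. The genes were taken as every probe set that names 1 of them and no other gene. All 10 genes were measured, by 16 of the 54613 probe sets, out of 19775 genes in all. The set was chosen from the higher value of S100A4 on the LP-1/Cfz arrays, so the values of these 10 genes in this contrast are a description. Whether they passed the threshold used for all genes is stated only as a label, with no p-value, and is no support for a change. The question asked of the data was whether the neighbours of S100A4 in the cluster moved with it.

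The LP-1 line was derived from multiple myeloma, a tumour of antibody-secreting plasma cells. LP-1/Cfz is its derivative selected for growth in carfilzomib, an inhibitor of the proteasome, and was resistant to 12 nM of the drug. There were 3 LP-1/Cfz samples, taken after 1 week of growth without carfilzomib, and 3 samples of parental LP-1 cells that had never been selected, and per the labels both were grown in medium with 4% serum. Total RNA of each sample was measured on an Affymetrix Human Genome U133 Plus 2.0 array. LP-1/Cfz stands for a single selected line, and whether its triplicates came from different cultures is not stated, so the spread between arrays may be technical and the p-values measure only that spread.

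The expression values are on the log2 scale, and each probe set was centred on an unstated baseline. A difference of 1 therefore stands for a doubling between arrays, but values do not tell how strongly a gene was expressed and cannot be set against those of another gene. For the same reason the presence of plasma cell markers could not be judged from their level, and marker lists are given only as differences. LP-1/Cfz replicate 3 stood apart, with an interquartile range of 0.338 over all probe sets, while the other 5 arrays had 0.23 to 0.264. A gene or probe set is called where the adjusted p from limma was under 0.05, adjusted over all genes or all probe sets. The plasma cell list of 14 genes also holds NSD2, FGFR3 and CCND2, which are myeloma genes rather than markers of plasma cells. Of the 14 genes, 57.1% were called, beside 16.7% of all genes, and the groups did not overlap for 78.6%, beside 35.9%. Those higher were NSD2 (log2 fold change 0.78), CCND2 (0.40), MZB1 (0.39), SDC1 (0.38) and TNFRSF17 (0.27), those lower SLAMF7 (-2.17), FGFR3 (-1.11) and CD38 (-1.07), and 6 were not called. The mean of the plasma cell list was -0.343 to -0.283 on the LP-1/Cfz arrays. On the LP-1 arrays it was -0.196 to -0.173, with no overlap. The median log2 fold change of the list was 0.09, against 0.02 over all genes. The lower mean thus does not stand for a fall of most of its genes. The part of this list in the S100 results was not tested. Of 13 measured myeloid markers, 0 were called by limma and 1, CSF1R, had an unadjusted p under 0.05. The mean of the myeloid list overlapped between the groups, at -0.0132 to 0.154 on the LP-1/Cfz arrays and 0.0047 to 0.0549 on the LP-1 arrays. T and NK cell markers had 1 higher and 1 lower call of 11 measured (18.2%), stromal markers 1 lower of 10 (10%), and epithelial and keratinocyte markers 0 of 12 by limma, with KRT19 at an unadjusted p under 0.05. In bulk RNA, fewer cells of a type and less RNA per cell cannot be told apart.

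Among the 16 probe sets, 3 were called, 1 higher and 2 lower in LP-1/Cfz, beside 11% of all probe sets (4.25% higher and 6.76% lower). The gene called higher was S100A4 and the gene called lower on both of its probe sets was S100A10. A change of 1.5 or more in size on the log2 scale, which S100A4 and 1 probe set of S100A10 showed, was seen on 0.366% of all probe sets. This size lies just under the 1.58 of S100A4, for which the set was chosen, so the share is no support. The sequences that precede these genes are shown here because S100A4 and S100A10 moved in opposite directions inside the cluster, and that of S100A6 because it is the nearest of the 10 genes to S100A4 and differed by less than its spread. Each run covers 250 bases before to 50 bases after the RefSeq start of the gene on GRCh38.p14, minus strand, at chr1:153545757-153546056 for S100A4, chr1:151993810-151994109 for S100A10 and chr1:153535942-153536241 for S100A6. Capitals mark 2 core promoter motifs searched on both strands, TATAAA, which places the start of transcription, and GGGCGG, which Sp1 binds.
S100A4: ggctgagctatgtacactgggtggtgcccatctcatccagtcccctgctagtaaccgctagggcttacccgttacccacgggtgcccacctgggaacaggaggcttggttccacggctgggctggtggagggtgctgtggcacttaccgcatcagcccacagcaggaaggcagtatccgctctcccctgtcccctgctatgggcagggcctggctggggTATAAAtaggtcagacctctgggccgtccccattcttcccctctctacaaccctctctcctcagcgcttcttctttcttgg
S100A10: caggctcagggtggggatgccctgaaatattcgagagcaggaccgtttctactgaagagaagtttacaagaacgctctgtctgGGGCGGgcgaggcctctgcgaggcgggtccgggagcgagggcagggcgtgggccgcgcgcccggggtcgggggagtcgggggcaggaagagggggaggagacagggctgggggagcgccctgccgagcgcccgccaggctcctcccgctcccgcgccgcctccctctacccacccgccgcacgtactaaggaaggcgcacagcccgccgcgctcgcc
S100A6: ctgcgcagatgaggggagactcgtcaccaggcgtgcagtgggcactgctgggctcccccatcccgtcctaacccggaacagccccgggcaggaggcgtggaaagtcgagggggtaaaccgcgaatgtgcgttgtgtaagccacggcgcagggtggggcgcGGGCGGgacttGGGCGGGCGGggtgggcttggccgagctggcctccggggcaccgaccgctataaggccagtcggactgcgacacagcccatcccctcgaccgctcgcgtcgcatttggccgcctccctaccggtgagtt
The S100A4 window held 1 TATAAA and 0 GGGCGG, the S100A10 window 0 and 1, and the S100A6 window 0 and 3, of which 2 overlap. G and C made up 60.7% of the S100A4 window, 71.7% of that of S100A10 and 69.3% of that of S100A6, with a median of 58.7% over 35116 windows of this length. TATAAA occurred in 11.5% and GGGCGG in 45% of all windows. Among the 9 genes with a window, 5 held TATAAA and 6 held GGGCGG in at least 1 window. These counts are per gene and the shares of all windows are per window, so they are unlike measures. TGANTCA, a site of AP-1 factors, occurred in 7.71% of all windows, and TGACNNNGC, the core of the antioxidant response element, in 13.3%. Neither was found in these 3 windows. Of the 9 genes with a window, only S100PBP held TGANTCA and only S100A13 held TGACNNNGC. S100B had no window and was not searched. A match of letters describes these windows only.

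S100A4, also called metastasin, binds the heavy chain of non-muscle myosin and is known from motile and metastatic cells. Its single probe set, 203186_s_at, had 0.775, 0.805 and 0.725 in LP-1/Cfz, against -0.725, -0.8 and -0.909 in LP-1. All LP-1/Cfz arrays lay above all LP-1 arrays, and the arrays within each group lay close together. The means were 0.768 ± 0.0405 in LP-1/Cfz and -0.811 ± 0.0924 in LP-1 (SD, n = 3 each), a log2 fold change of 1.58 (standard error 0.0693), or 2.99-fold higher. Among all 54613 probe sets, this was the rise of rank 19. Across the alternatives tried the log2 fold change was 1.53 to 1.65, and it was 1.60 without LP-1/Cfz replicate 3.

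S100A10, also called p11, is the family member whose EF-hands no longer bind calcium. It pairs with annexin A2 at the inner face of the plasma membrane and takes part in plasminogen binding on the cell surface. On probe set 200872_at it had 0.203, 0.0549 and 0.196 in LP-1/Cfz, against 3.84, 3.71 and 3.67 in LP-1. The groups were far apart on this probe set and no array lay between them. The means were 0.151 ± 0.0835 in LP-1/Cfz and 3.74 ± 0.0914 in LP-1 (SD, n = 3 each). This is a log2 fold change of -3.59 (standard error 0.0753), 12-fold lower, and of rank 16 among the falls of all probe sets. The second probe set, 238909_at, had 0.134, -0.0594 and 0.086 in LP-1/Cfz, against 0.813, 0.813 and 0.784 in LP-1. It too was lower on every LP-1/Cfz array, with a smaller difference of -0.75 on the log2 scale (standard error 0.0696), or 1.68-fold. The probe sets of S100A10 thus shared the direction and differed in size, and the mean of both gave -2.17 for the gene. Without LP-1/Cfz replicate 3 the values of the probe sets were -3.61 and -0.77.

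S100A11, the partner of annexin A1, lies next to S100A10. It had -0.0818, -0.0719 and -0.12 in LP-1/Cfz, against 0.0927, 0.0719 and 0.113 in LP-1. The groups did not overlap, but the log2 fold change was -0.18 (standard error 0.057), a 1.14-fold difference. It was called lower in the fit over genes and not in the fit over probe sets. Of 6 fits with 1 array fewer, 1 kept the call over genes. On the neighbouring position the probe sets of S100A10 were 12-fold and 1.68-fold lower, against 1.14-fold for S100A11. Whether S100A11 fell at all is not settled by these fits.

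S100A6, or calcyclin, a protein of dividing cells that binds CACYBP, lies on the other side of S100A5 from S100A4. On probe set 217728_at it had -0.612, -1.03 and -0.634 in LP-1/Cfz, against -0.794, -1.14 and -0.924 in LP-1. The groups overlapped, and the log2 fold change of 0.20 (95% interval -0.11 to 0.50) was within the spread of the arrays. Its second probe set, 228923_at, pointed the other way, at -0.09 (-0.24 to 0.06), so that the mean over both was 0.05 (-0.12 to 0.22).

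S100A8 and S100A9 form calprotectin, the abundant calcium- and zinc-binding complex of neutrophils and monocytes. S100A8 had 0.216, -0.139 and 0.303 in LP-1/Cfz, against 0.0965, 0.14 and 0.00528 in LP-1 on probe set 202917_s_at. S100A9 had 0.149, -0.16 and -0.107 in LP-1/Cfz, against -0.195, 0.0585 and -0.0238 in LP-1. For both genes the groups overlapped and the arrays within a group differed by more than the groups did. The log2 fold changes were 0.05 (95% interval -0.22 to 0.31) and 0.05 (-0.12 to 0.23) on the probe sets of S100A8, and 0.01 (-0.22 to 0.25) for S100A9. S100A4 was chosen for its large change, so intervals that leave out a change of that size are no support. Whether S100A8 and S100A9 were detected is not known.

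S100A13, which takes part in the export of FGF1 and interleukin-1 alpha by a route outside the classical secretory pathway, lies next to S100A1 near the end of the cluster. Its probe sets had log2 fold changes of -0.05 (95% interval -0.19 to 0.10) and -0.01 (-0.18 to 0.16). S100P, known from placenta and several carcinomas, had 0.164, 0.164 and 0.139 in LP-1/Cfz, against 0.151, 0.266 and 0.309 in LP-1. LP-1 replicate 1 lay among the LP-1/Cfz arrays, and the log2 fold change was -0.09 (-0.24 to 0.06). S100B, a protein of glial cells and melanoma, had 0.01 (-0.21 to 0.24) on 1 probe set and -0.12 (-0.39 to 0.16) on the other, with overlapping groups on each.

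S100PBP, the nuclear protein that binds S100P, was higher on both probe sets by a small amount. On probe set 218370_s_at it had -0.00298, -0.0358 and -0.13 in LP-1/Cfz, against -0.249, -0.22 and -0.218 in LP-1. On 222610_s_at it had -0.42, -0.437 and -0.481 in LP-1/Cfz, against -0.569, -0.667 and -0.582 in LP-1. The groups did not overlap on either probe set, and the log2 fold changes were 0.17 (95% interval 0.03 to 0.32) and 0.16 (0.02 to 0.30). Neither was called. The groups did not overlap on 6 of the 16 probe sets, beside 30.7% of all probe sets. By gene this held for 4 of 10, namely S100A4, S100A10, S100A11 and S100PBP, beside 35.9% of all genes. In the fit over genes 1 of the 10 was called higher and 2 were called lower, beside 6.72% and 10% of all genes.

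**Figure D1:**
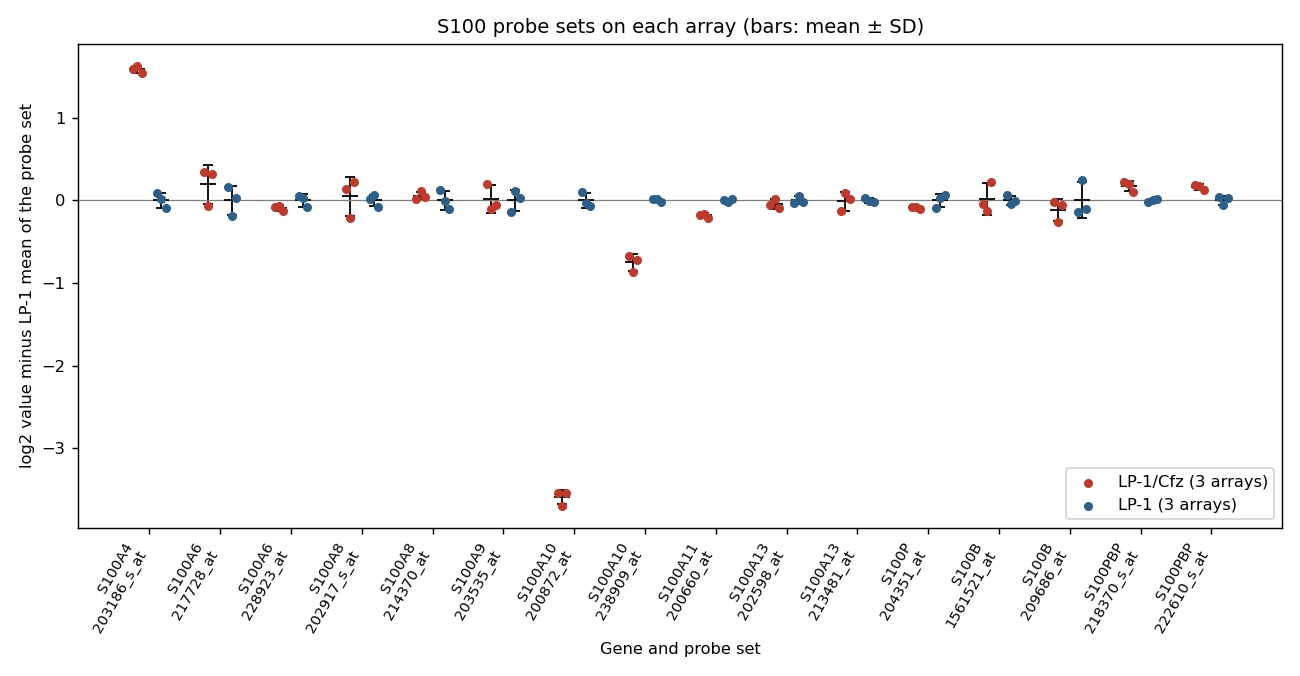
Values of the 16 S100 probe sets on the 3 LP-1/Cfz and 3 LP-1 arrays. Points are single arrays, plotted vertically on the log2 scale after subtraction of the mean LP-1 value, with the group mean and its SD (n = 3) as bars. The difference from LP-1 is 1.58 for S100A4, -3.59 and -0.75 for the probe sets of S100A10, and between -0.18 and 0.20 for the others.

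To ask whether the neighbours of S100A4 followed it, measured genes were read in chromosomal order from S100A10 to S100A1, the first and last S100 genes of the cluster, with 10 measured genes on each side. In the stretch from S100A9 to S100A1, which holds 14 measured genes, all of them S100 genes, S100A4 was the only one called. The 9 genes of this stretch outside the set of 10 had log2 fold changes of -0.14 to 0.34, and 0 were called by limma, beside 16.7% of all genes. S100A2 had an unadjusted p under 0.05. S100A5, the nearest neighbour on one side, had 0.0955, -0.144 and 0.0106 in LP-1/Cfz, against 0.0241, -0.00542 and 0.0973 in LP-1. Its log2 fold change was -0.05 (95% interval -0.21 to 0.11, adjusted p = 0.679 from limma). S100A3, the nearest on the other side, had 0.0367, 0.153 and 0.152 in LP-1/Cfz, against 0.0538, 0.234 and -0.0103 in LP-1, a log2 fold change of 0.02 (-0.15 to 0.19, adjusted p = 0.88). For both S100A5 and S100A3 the groups overlapped, and the upper bounds of the intervals were 0.11 and 0.19. S100A4 was chosen for its 1.58, so intervals that lie below that value are no support. Whether S100A5 and S100A3 were detected is not known from centred values. The RefSeq gene models of S100A4 and S100A5 overlap, and whether their probes lie in the shared stretch was not tested.

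The largest value among these neighbours was that of S100A2, a family member of epithelial cells, which follows S100A3. It had 0.0883, 0.235 and 0.426 in LP-1/Cfz, against -0.0858, -0.352 and 0.17 in LP-1. The arrays of each group were spread widely and the groups overlapped, with a log2 fold change of 0.34 (95% interval 0.02 to 0.66, adjusted p = 0.142 from limma). S100A1, a calcium sensor of muscle, had 0.15 (adjusted p = 0.181) and was called without LP-1/Cfz replicate 3 and with array weights, where the lowest adjusted p was 0.0361. S100A12, another protein of neutrophils, had -0.14 (adjusted p = 0.289), S100A7 (psoriasin) 0.08 (adjusted p = 0.703), S100A7A 0.09 (adjusted p = 0.484), S100A14 -0.01 (adjusted p = 0.962) and S100A16 -0.04 (adjusted p = 0.807). S100G, the intestinal calbindin, and S100Z lie outside the cluster and had 0.11 (adjusted p = 0.447) and 0.17 (adjusted p = 0.367). Of the 11 S100 genes outside the set of 10, 0 were called by limma, and S100A2 had an unadjusted p under 0.05. S100A7 and S100A7A are close copies whose probes may read each other.

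Between S100A11 and S100A9 lie genes of the epidermal differentiation complex, which build the outer layer of skin. Of the 29 measured there, 1 was called higher and 1 lower, or 6.9%, beside 16.7% of all genes. LELP1, a late envelope protein, rose by 0.25 on the log2 scale (limma adjusted p = 0.047, standard error 0.0707), and PGLYRP4, which binds bacterial peptidoglycan, fell by 0.27 (standard error 0.0726, adjusted p = 0.0415). Both were called in the fit over genes and not in the fit over probe sets (limma adjusted p = 0.0846 and 0.0744). The call of LELP1 was lost in each of 6 fits with 1 array fewer and that of PGLYRP4 in 5 of them (adjusted p up to 0.152 and 0.13). Filaggrin (FLG), the best known gene of this stretch, had -0.08 (adjusted p = 0.503), and involucrin (IVL) 0.23 (adjusted p = 0.464).

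In the 20 flanking genes, 4 were called higher and 2 lower, or 30%, beside 16.7% of all genes, and the groups did not overlap for 60%, beside 35.9%. TUFT1, first described in tooth enamel, had -0.0013, 0.0501 and -0.0754 in LP-1/Cfz, against -0.55, -0.558 and -0.633 in LP-1, and rose by 0.57 on the log2 scale (limma adjusted p = 0.000389, standard error 0.0547). On the other flank SLC27A3, an acyl-CoA synthetase of the fatty acid transport family, had 0.289, 0.356 and 0.175 in LP-1/Cfz, against -0.361, -0.311 and -0.175 in LP-1, and rose by 0.56 (standard error 0.0706, adjusted p = 0.00152). Both calls held whichever array was left out. SNX27, a sorting nexin, rose by 0.26 (adjusted p = 0.0171) and TDRKH, a Tudor domain protein, by 0.22 (adjusted p = 0.0195). THEM4, a thioesterase and the measured gene next to S100A10, fell by 0.28 (standard error 0.0557, adjusted p = 0.0114), and CRTC2, a coactivator of CREB, also by 0.28 (standard error 0.0548, adjusted p = 0.012). Leaving out 1 array ended the calls of SNX27 and TDRKH in 3 fits each, of THEM4 in 2 and of CRTC2 in 1, with adjusted p up to 0.0801.

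Over the whole stretch, 8 of the 58 genes that are not among the 10 were called, 5 higher and 3 lower, or 13.8%, of which 6 lay in the flanks, beside 16.7% of all genes and 14.6% of the 1926 measured genes of chromosome 1. The median log2 fold change of the 58 genes was 0.04, against 0.02 over all genes, and their values ran from -0.28 to 0.57. With 1 array left out, 3 to 9 of the 58 were called, the fewest without LP-1 replicate 2 (3), LP-1 replicate 1 or 3 (4 each) and LP-1/Cfz replicate 1 (5). S100A4 and S100A10 both lay outside the range of the other genes of the stretch, on opposite sides. S100A4 was chosen for its high value, so its place above the other genes is no support.

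**Figure D2:**
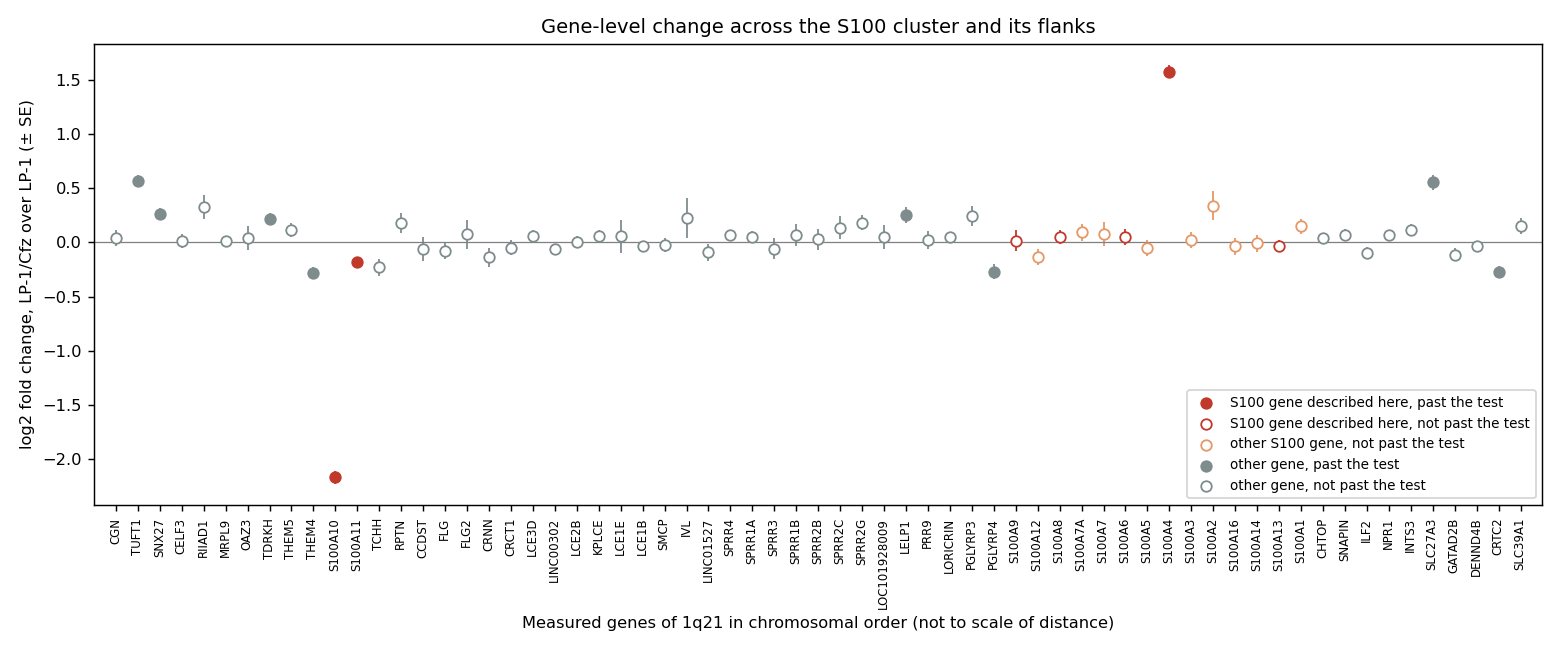
Log2 fold change of LP-1/Cfz over LP-1 for each measured gene from 10 genes before S100A10 to 10 genes after S100A1, in chromosomal order, with bars for the standard error of 3 against 3 arrays. Filled points had an adjusted p under 0.05 in limma over all genes. S100A4 stands at 1.58 and S100A10 at -2.17, and the other 63 genes lie between -0.28 and 0.57.

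S100 proteins act through partners, which include annexins, the cytoskeleton, surface receptors and the proteins of plasminogen activation. Of 25 such genes, 23 were measured, 1 was higher, 5 were lower and 17 were not called, or 26.1% called beside 16.7% of all genes. Their median log2 fold change was -0.04, against 0.02 over all genes. PLAUR, the receptor of urokinase, which places plasminogen activation on the cell surface, had -0.195, -0.248 and -0.0881 in LP-1/Cfz, against 0.305, 0.351 and 0.346 in LP-1. The groups did not overlap, and PLAUR fell by 0.51 on the log2 scale (limma adjusted p = 0.000798, standard error 0.0566). This call held whichever array was left out. Urokinase itself, PLAU, had 0.15 (adjusted p = 0.0902), the tissue activator PLAT 0.23 (adjusted p = 0.195) and plasminogen, PLG, 0.10 (adjusted p = 0.61).

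Of the annexins, ANXA2, the partner of S100A10, had 0.0781, 0.116 and 0.0023 in LP-1/Cfz, against 0.256, 0.146 and 0.29 in LP-1. All LP-1/Cfz arrays lay below all LP-1 arrays, but by a log2 fold change of only -0.16 (95% interval -0.30 to -0.03, adjusted p = 0.104), which did not pass the test. Its 4 probe sets gave -0.18 to -0.15, and annexin A2 pseudogenes may share these probes. AHNAK, a giant scaffold protein that binds the complex of S100A10 and annexin A2, had 0.71, 0.791 and 0.716 in LP-1/Cfz, against 1.01, 1 and 0.956 in LP-1. It fell by 0.25 (standard error 0.0494, adjusted p = 0.0115), on 3 of its 5 probe sets, a call lost without LP-1 replicate 1. ANXA6 was the partner that rose, by 0.24 (standard error 0.0516, adjusted p = 0.0179), and its call was lost in 4 of 6 fits with 1 array fewer. ANXA1, ANXA5 and ANXA11 had 0.15, 0.10 and -0.10 and were not called (lowest adjusted p = 0.162).

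Among partners in the cytoskeleton, MYH9, the myosin heavy chain that S100A4 binds, had -1.04, -1.05 and -1.21 in LP-1/Cfz, against -0.809, -0.85 and -0.796 in LP-1. It fell by 0.28 (standard error 0.0605, adjusted p = 0.0163 from limma), on its single probe set. EZR, or ezrin, a partner of S100P that ties membrane to actin, had -0.469, -0.47 and -0.563 in LP-1/Cfz, against -0.214, -0.211 and -0.208 in LP-1, and fell by 0.29 (standard error 0.0494, adjusted p = 0.00601). For both genes the groups were apart. The call of MYH9 was lost without LP-1 replicate 1, without LP-1 replicate 3 and with the arrays quantile normalized again, and that of EZR held whichever array was left out. MDM2, a ubiquitin ligase that S100 proteins can bind, fell by 0.24 (standard error 0.052, adjusted p = 0.0186) and lost its call in 4 of 6 fits with 1 array fewer. CACYBP, the partner of S100A6, had -0.06 (adjusted p = 0.448). The receptors of extracellular S100 proteins, AGER, TLR4, CD36 and BSG, had -0.07 to 0.05, with 0 of 4 called by limma and 0 of 4 at an unadjusted p under 0.05.

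**Figure D3:**
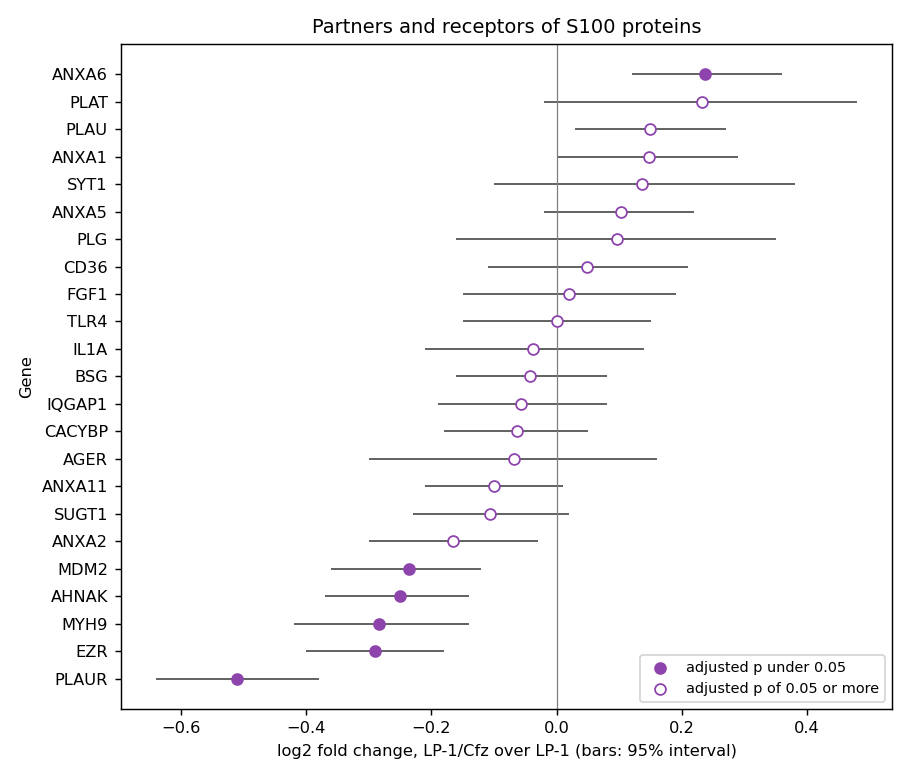
Log2 fold change of LP-1/Cfz over LP-1 for 23 partner genes of S100 proteins, with bars for the 95% interval over 3 against 3 arrays and filled points where the adjusted p from limma was under 0.05. PLAUR at -0.51 is the lowest and ANXA6 at 0.24 the highest, and ANXA2 at -0.16 is not called.

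The genes whose values followed S100A4 most closely over the 6 arrays were KLHDC9 (Pearson r = 0.9995), LDHB (0.9986), FAM50A (0.9985), BEX3 (0.9984) and BLNK (0.9982). None of them lies in the stretch around S100A4, although KLHDC9 is on chromosome 1. Their log2 fold changes were 1.03, 0.20, 0.54, 0.48 and 1.28. Because the arrays form 2 groups, any gene that separates the groups correlates with S100A4, and 134 of 19774 genes had r above 0.99.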

How the data were processed

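RNA of 3 LP-1/Cfz and 3 LP-1 samples was measured on Affymetrix arrays, 1 array each. Log2 values of 54613 probe sets, as deposited by the authors, were used, and the submitters' notes name RMA with no version. The values are centred per probe set on an unstated baseline, so differences between arrays are kept but levels are not, and a filter on dim probe sets was not possible. Control probe sets, scan dates and scanner files were not used here. Precision is limited by the number of arrays, and a two-sided exact permutation test of 3 against 3 cannot give a p under 0.1.

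A table of the array's annotation named 1 gene for 41091 probe sets, several for 1801 and none for 11721. Gene values are means of all probe sets that name only that gene. The contrast of LP-1/Cfz over LP-1 was fitted with limma 3.58.1 under R 4.3.3 (lmFit and eBayes, no covariate, two-sided). P-values were adjusted by Benjamini-Hochberg, either across every probe set or across 19775 genes, and the 95% intervals come from the same fits. The fit was tested on simulated data. Gene order came from RefSeq on GRCh38.p14 and promoter sequences from RefSeq with the same build. Probe sets ending in _s_at can read several transcripts.

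The 10 genes and the gene lists were chosen with earlier results of these data known. Named were all 10 genes, other S100 genes, called genes of the cluster and its flanks, called partners and the 5 genes most like S100A4. FLG, IVL and uncalled partners were named after their values were seen. Alternatives were quantile normalization, median centring, array weights, a robust prior, a replicate block, leaving out each array, the probe set with the largest spread per gene, a minimum fold change of 1.2, only probe sets with 1 gene, and the methods' fold change of 1.7. Labels give the same replicate numbers in both groups.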

Additional observations from a re-analysis of the deposited data

How the results depend on the processing

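The log2 fold change of S100A4 was 1.53 to 1.65 over 12 fits, and those of the S100A10 probe sets were -3.63 to -3.54 and -0.79 to -0.69. These fits use the arrays on which the genes were chosen, so the ranges are a description and no support. With 1 array left out, 3395 to 5355 probe sets and 2080 to 3183 genes were called in all, against 6014 and 3312 with every array, and the called S100 probe sets stayed at 3. Of the genes around the S100 cluster 3 to 9 were called in those fits, of the other S100 genes 0 to 1 and of the partners 2 to 6. With a minimum fold change of 1.2, 1312 probe sets, 624 genes, 1 gene around the cluster (TUFT1) and 1 partner (PLAUR) were called. At a fold change of 1.7 or more, with no test, the counts were 867 probe sets, 339 genes, 2 S100 probe sets, 0 genes around the cluster and 0 partners. The second probe set of S100A10 lay at 1.68. With array weights 1 other S100 gene (S100A1) was called. Quantile normalization brought the called S100 probe sets to 4, the added one being that of S100PBP, at 0.26 in place of 0.16. With the replicate block, 4544 probe sets, 2641 genes, 3 S100 probe sets and 5 partners were called, and LELP1, PGLYRP4 and ANXA6 lost their calls over genes (adjusted p = 0.0693, 0.0779 and 0.0515), as did S100A11. Deviations of same-numbered arrays correlated at -0.0487, 0.126 and -0.00556, so the numbers were not taken to pair the samples. No direction of a called S100 probe set turned in any of these fits, while uncalled probe sets of S100A8, S100A9, S100A13 and S100B changed sign in some. Why these counts moved was not tested. With centred values, signal over background is not known, so a value does not tell whether a gene was detected. A gene without a difference may have been at or below detection.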
